A study of Saccharomyces cerevisiae with 6 samples.

Results

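The 8 core histone genes of budding yeast lie in 4 divergent pairs, and all 8 were measured here, out of 6477 genes in the RefSeq table of the organism. They were chosen by position in the sacCer1 build, with 1 kb on each side of a pair, and these positions are approximate. HHF1 (encoding H4) and HHT1 (encoding H3) lie on chromosome 2 from 255373 to 256741. HHT2 (H3) and HHF2 (H4) lie on chromosome 14 from 575642 to 577038. HTA2 (H2A) and HTB2 (H2B) lie on chromosome 2 from 235396 to 236890, and HTB1 (H2B) and HTA1 (H2A) on chromosome 4 from 914317 to 915928. In the RefSeq gene table the members of each pair are neighbours with no gene between them. FLR1 and IPP1 flank the first pair, SIW14 and KTR5 the second, UTP20 and ECM15 the third, and CRF1 and ADK1 the fourth.

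Core histones are the proteins around which nucleosomal DNA is wrapped: a tetramer of H3 and H4 sits at the center, with an H2A-H2B dimer on each side. Each yeast pair encodes either H3 and H4 or H2A and H2B. It is transcribed outward from a promoter shared by both genes, mainly in S phase, when new DNA needs new nucleosomes. The activator Spt10 binds these promoters, and the HIR complex, with the chaperone Asf1, represses HTA1-HTB1, HHT1-HHF1 and HHT2-HHF2 outside S phase, whereas HTA2-HTB2 is not a target of HIR repression.

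Read depth came from 6 MNase-seq libraries of crosslinked cells, sequenced from a single end. In this assay micrococcal nuclease digests unprotected DNA, and the fragments that nucleosomes shield are sequenced. The H3 shutoff strain (DCB200.1) has HHT1 deleted and its remaining H3 gene, HHT2, placed under the galactose-inducible GAL1 promoter. It was sampled directly after transfer from galactose to dextrose (0 h, n = 2) and after 3 h in dextrose (n = 2), and wildtype (YEF473A), with both native H3 genes, was sampled at the same times (n = 1 each). Both times of a replicate came from 1 culture, and all cells of both strains had been grown in galactose and moved to dextrose. Dextrose stops H3 synthesis in the shutoff strain, which according to the study then arrests as large-budded cells after a single round of DNA synthesis. The 3 h libraries of the strains therefore also differ in cell cycle stage, which cannot be told apart from the loss of H3.

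Each library holds 5000001 extended reads, a mean of 41.4 read centers per 100 bp of the genome. Because the authors drew the same number of reads for each library, counts measure relative occupancy, and a loss shared by all positions leaves them unchanged. A lower count at a site cannot tell fewer cells with a nucleosome there from a nucleosome held more briefly in each cell. The average fragment was 174 bp long in wildtype at either time. In the H3 shutoff strain it was 170 bp (replicate 1) and 172 bp (replicate 2) before depletion and 158 and 165 bp after it. The libraries of H3-depleted cells thus had the shortest estimated size. The paper, which also used paired-end replicates, reports that average fragment length stayed the same after depletion. H3 shutoff 0 h replicate 1 stood apart. Over tiles of 400 bp its log2 counts correlated with replicate 2 at r = 0.796, whereas replicate 2 correlated with wildtype 0 h at r = 0.939 (across tiles, which are not independent replicates). The values of each culture are therefore given apart, and the main differences between strains also without replicate 1. In the regions within 20 kb of the 4 loci, the loci left out, each library had 0.923 to 1.06 times the read centers of wildtype 0 h. Within 10 kb the range was wider, from 0.878 (HHT2-HHF2, H3 shutoff 3 h replicate 1) to 1.14 (HTA2-HTB2, H3 shutoff 3 h replicate 2). The regions around the pairs were thus present in both strains, at depths within these ranges.

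**Figure D1:**
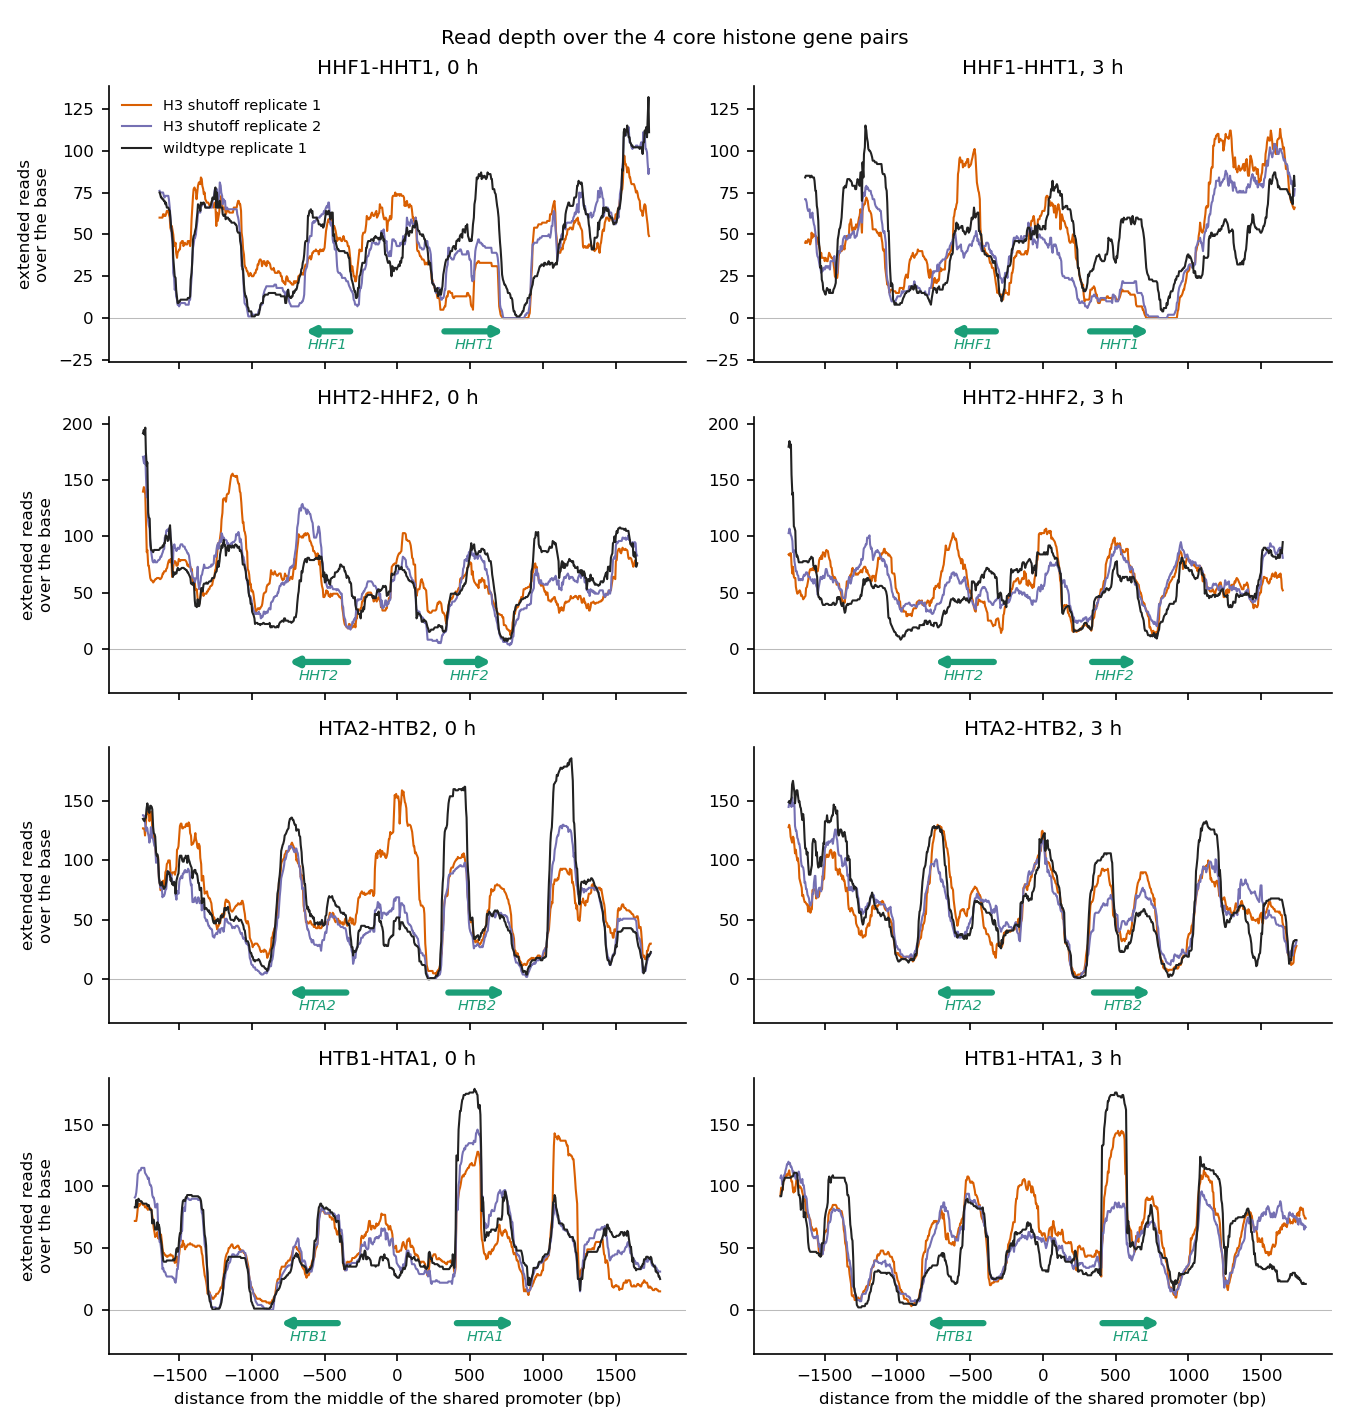
Extended reads over each base (vertical axis) against the distance from the middle of the shared promoter in bp (horizontal axis) for the 4 pairs, at 0 h (left) and 3 h (right). Lines are single libraries and arrows are coding regions. HHT1 and the stretch past its 3′ end are low in all 4 H3 shutoff libraries, and the trough before HTB2 is present in all 6.

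The H3 genes were examined first, because the strain itself differs there and its deletion checks the labels. HHT1 had fewer read centers in each H3 shutoff library than in either wildtype library. Over its 411 bp coding region there were 145 read centers in wildtype 0 h and 112 in wildtype 3 h, against 46 and 83 in the H3 shutoff strain at 0 h and 27 and 34 after 3 h. The groups did not overlap, and the 3 h libraries of the shutoff strain were the lowest. The share of all features without such overlap was not counted. The fitted difference between strains, over both times, was -1.56 on the log2 scale (SE 0.30), or 0.338-fold, with an adjusted p of 0.0538 by edgeR's quasi-likelihood test (unadjusted p = 0.000268), just short of the threshold of 0.05. The difference had the same sign in all 16 alternatives and passed in 6 of the 15 that give a test, among them DESeq2 (adjusted p = 0.0264). The 2 times of a replicate came from 1 culture but were counted as separate samples here. With the replicate block, each pair summed over both times, HHT1 was called (log2 -1.46, adjusted p = 0.0136). That fit called 9.72% of all features genome-wide, whereas the fit to single libraries called 0.00665%. Without the whole first shutoff culture HHT1 was called (log2 -1.26, adjusted p = 0.0269, 0.762% of all features called), and without the second it was not (log2 -1.87, adjusted p = 0.415). Without H3 shutoff 0 h replicate 1 alone it was called (log2 -1.38, adjusted p = 0.00228), in a fit that called 19.8% of all features. Without H3 shutoff 3 h replicate 1 the adjusted p was 0.146, without H3 shutoff 0 h replicate 2 it was 0.0974, and without H3 shutoff 3 h replicate 2 it was 0.0653.

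**Figure D2:**
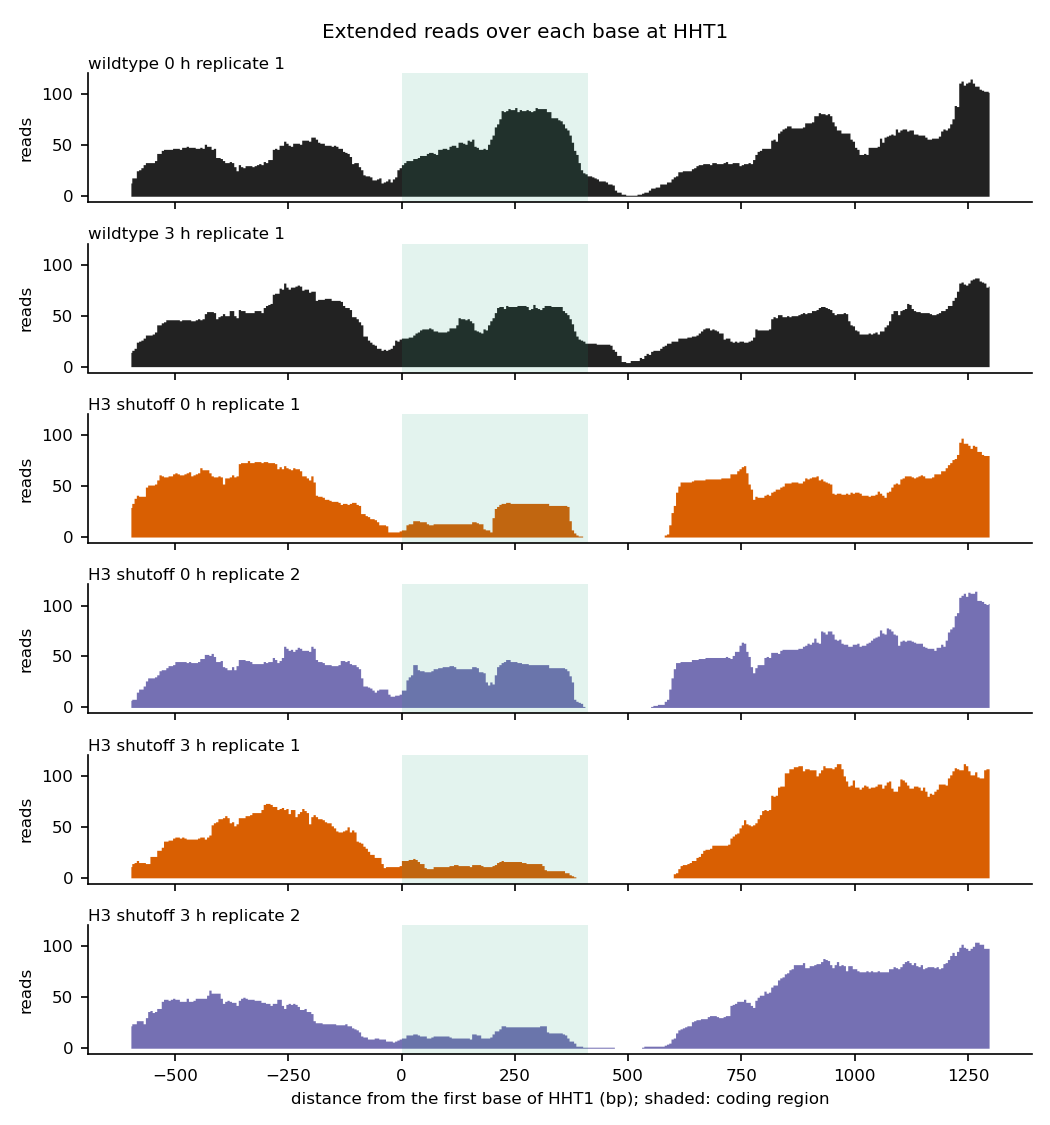
Extended reads over each base (vertical axis) against the distance from the first base of HHT1 in bp (horizontal axis), with 1 panel per library and the coding region shaded. Wildtype reads run through the 3′ end of the gene, where 20 and 23 reads cover the last base. In the H3 shutoff libraries the reads stop before or just past it and a stretch without reads follows.

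The pattern of reads at HHT1 differed as well as their number. In wildtype, 20 extended reads covered the last base of the coding region at 0 h, and 23 did at 3 h. The H3 shutoff strain had 0 in both 0 h libraries, 0 in 3 h replicate 1 and 1 in 3 h replicate 2. Taking 3 reads per library as the limit that a count of 0 allows, the 20 wildtype reads at 0 h were 6.67 times that limit. This ratio leaves out the counting error of the wildtype library, so it is not a strict lower bound. A stretch without any read spanned the 3′ end in 3 of the 4 shutoff libraries. It was 181 and 145 bp long at 0 h and 216 bp in 3 h replicate 1, of which 12, 6 and 27 bp lay inside the coding region. In 3 h replicate 2 it was 64 bp long and began past the end of the gene. The longest such stretch at this locus in wildtype was 3 bp at 0 h, and at 3 h there was none. Beyond it, toward IPP1 (inorganic pyrophosphatase), reads resumed in all 4 shutoff libraries, and the 1 kb flank on this side differed by 0.26 on the log2 scale between strains (adjusted p = 0.299).

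Reads were nevertheless present inside the coding region of the deleted gene. In the H3 shutoff strain 44, 22, 75 and 27 extended reads lay wholly inside it (replicate 1 at 0 h and 3 h, then replicate 2 at 0 h and 3 h), against 101 and 72 in wildtype at 0 h and 3 h. At 0 h the 46 read centers of replicate 1 held 20 distinct intervals and the 83 of replicate 2 held 46, and at 3 h the 27 of replicate 1 held 21 and the 34 of replicate 2 held 31. In wildtype the 145 of 0 h held 95 and the 112 of 3 h held 75. Repeats of one interval thus made up more of the reads than in wildtype at 0 h and less at 3 h. Over the whole genome, distinct intervals were 52.7% and 51.9% of reads in the shutoff strain at 0 h, against 47.8% in wildtype. At 3 h they were 59.5% and 64.5%, against 46.2%. The contrast at 3 h thus had the direction of the whole libraries, and that at 0 h did not. HHT1 and HHT2 encode the same protein and are alike in sequence, and the files hold intervals without read sequences. Reads of HHT2 placed at HHT1 by the alignment and reads of HHT1 itself therefore cannot be told apart, and values at the paired copies of each histone gene carry this uncertainty.

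The share of H3 coding reads at HHT1 shows the same contrast without scaling between libraries. HHT1 held 47.5% of the read centers of both H3 genes in wildtype at 0 h (95% exact binomial interval 41.8% to 53.3%) and 48.7% at 3 h (42.1% to 55.4%). In the H3 shutoff strain the share was 22.3% (16.8% to 28.6%) and 30.1% (24.7% to 35.9%) at 0 h, and 14.1% (9.53% to 19.9%) and 20.4% (14.5% to 27.3%) at 3 h. These binomial intervals cover counting error only. They take each read as independent, although many reads repeated an identical interval, so they are too narrow. Every shutoff interval ended below both wildtype intervals, and within each shutoff culture the share was lower at 3 h than at 0 h, with overlapping intervals. With each identical interval counted once, replicate 1 held 20 at HHT1 and 96 at HHT2 at 0 h, then 21 and 100 at 3 h. Its share thus did not fall by that count. Replicate 2 held 46 and 111, then 31 and 97, and wildtype 95 and 85, then 75 and 75. For the other histones the shares lay closer together across strains: HHF1 held 39.9% to 48.5% of H4 coding reads in the shutoff strain and 42.5% and 44.9% in wildtype, and HTA1 held 52.9% to 62.4% of H2A coding reads against 57.4% and 60.9%. HTB1 held 41.6% to 54.2% of H2B coding reads in the shutoff strain and 37.1% and 45.4% in wildtype.

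**Figure D3:**
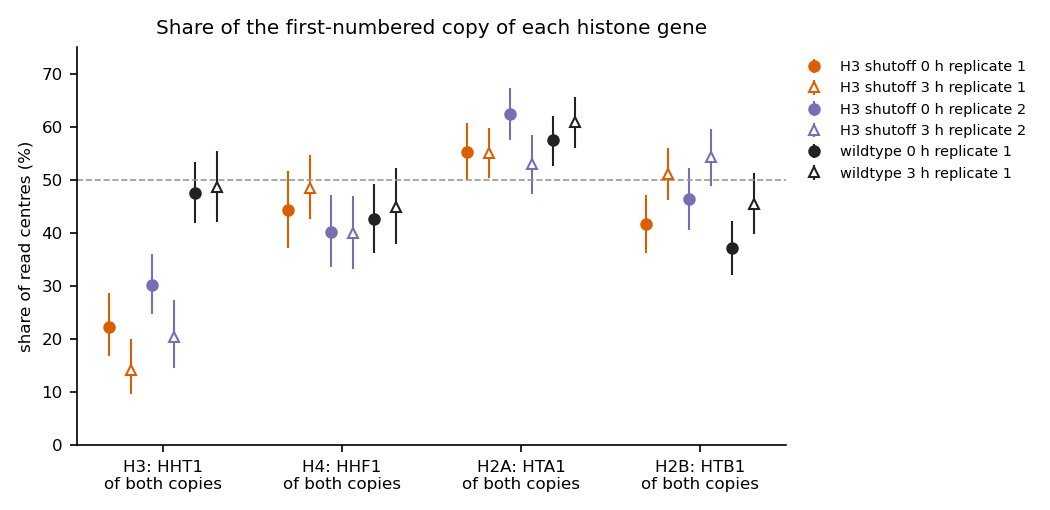
Share of read centers (vertical axis, percent) that lay in the first-numbered copy of each histone gene, out of both copies, with 1 point per library and 95% exact binomial intervals. The dashed line marks equal shares. The 4 H3 shutoff points of HHT1, between 14.1% and 30.1%, lie below both wildtype points.

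At HHT2 the counts of the whole gene body overlapped between strains, while 3 single nucleosomes in or beside it were called. The coding region held 160 and 193 read centers in the shutoff strain at 0 h and 164 and 133 at 3 h, against 160 and 118 in wildtype, and the strain difference was 0.19 on the log2 scale (SE 0.18, adjusted p = 0.523). The groups overlapped. The shared promoter between HHT2 and HHF2, whose part in driving HHT2 the GAL1 promoter takes over in the shutoff strain, held 198 and 158 read centers at 0 h and 216 and 187 at 3 h, against 159 and 210 in wildtype (log2 0.01, SE 0.17, adjusted p = 0.979). These groups overlapped too. Reads at the GAL1 locus were not analysed here.

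Single nucleosomes gave the distribution along HHT2. Pooling all libraries gave a common set of called nucleosomes (consensus nucleosomes), of which 62 of 54902 lay in the 4 loci with their flanks, 27 inside the gene pairs and 35 in the flanks. Of these, 59 had a mean of at least 10 read centers and were tested. Where strains are said not to overlap at a nucleosome, the share of all nucleosomes that do the same was not counted. Between strains, 2 were called lower and 2 higher by edgeR at an adjusted p under 0.05, where the genome-wide background was 1.52% lower and 3.27% higher, 4.79% in all. A count of 4 in 59 is near that background. The median over the 59 was 0.09 on the log2 scale, beside -0.0029 over all 53684 tested. All 4 lay in or beside the H3 genes, a grouping seen only after the values were known.

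Of these 4, the window over the first nucleosome of HHT2 held fewer reads in the shutoff strain. Centered 39 bp inside the coding region, it held 15 read centers in both 0 h libraries and 22 and 35 at 3 h, against 55 and 50 in wildtype (log2 -1.19, SE 0.31, adjusted p = 0.0486 by edgeR). The groups did not overlap. This window ran from 575963 to 576063. In the authors' calls for shutoff 0 h the center lay outside it, at 575948 and 575956, with 41 and 44 read centers. Wildtype 0 h had 55, centered at 575989. At 3 h the shutoff calls lay at 576013 and 576012 with 22 and 35, and that of wildtype at 575987 with 49. The low window counts at 0 h thus go with a shifted center as well as with fewer reads. The nucleosome centered 267 bp into HHT2 went the other way, with 79 and 89 read centers at 0 h and 68 and 48 at 3 h against 64 and 23 in wildtype (log2 1.01, SE 0.26, adjusted p = 0.0458). Here the shutoff library at 48 lay below wildtype 0 h, so the groups overlapped. A nucleosome centered just past the 3′ end of HHT2 was higher too, at 46 and 33 at 0 h and 27 and 20 at 3 h against 13 and 8 (log2 1.72, SE 0.43, adjusted p = 0.0435), and its groups did not overlap. Toward the ends of the gene, reads over the first base of HHT2 numbered 18, 18, 21 and 41 in the shutoff strain and 64 and 67 in wildtype, and those over its last base 62, 65, 54 and 34 against 24 and 23.

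The nucleosome called lower at HHT1 was centered 290 bp into the gene. It held 31 and 41 read centers in the shutoff strain at 0 h and 7 and 14 at 3 h, against 66 and 41 in wildtype at 0 h and 3 h (log2 -1.27, SE 0.33, adjusted p = 0.0461 by edgeR). One shutoff library at 0 h equalled wildtype 3 h, so the groups met. The other HHT1 nucleosome, 80 bp into the gene, held 12, 34, 9 and 8 against 35 and 31 (log2 -1.09, SE 0.45, adjusted p = 0.147). None of these 4 calls held with DESeq2 (adjusted p = 0.218 to 0.369) or with 73 bp in place of 50 bp on each side of a center (adjusted p = 0.0753 to 0.106). None held without H3 shutoff 3 h replicate 1 (adjusted p = 0.150 to 0.179) or without H3 shutoff 3 h replicate 2 (0.0519 to 0.0778). None held without the whole first shutoff culture (adjusted p = 0.227 to 0.301) or the whole second (0.182 to 0.396). With at most 1 read per identical interval none held (0.0545 to 0.282), and the nucleosomes called higher at HHT2 were at 0.59 and 1.11 on the log2 scale. With the replicate block, each pair summed over both times, the call at HHT1 was lost (adjusted p = 0.0569) and the 3 at HHT2 were kept. All 4 passed without either single 0 h library of the shutoff strain, in fits that called 15.7% (without replicate 1) and 22.4% (without replicate 2) of all nucleosomes.

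**Figure D4:**
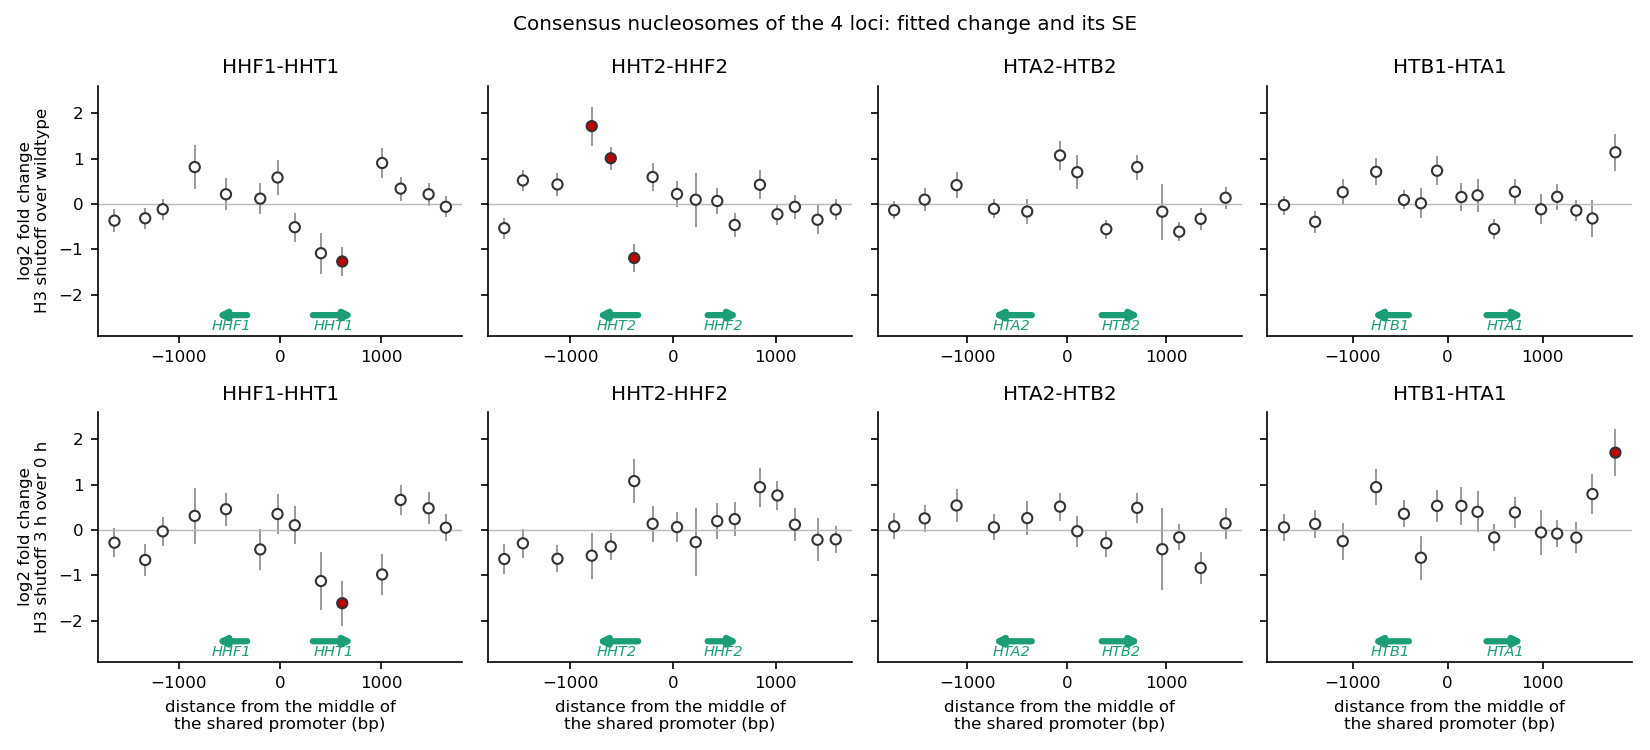
Fitted log2 fold change of each tested consensus nucleosome (points) with its SE (bars) against the distance from the middle of the shared promoter in bp, for H3 shutoff over wildtype (top) and for 3 h over 0 h in the H3 shutoff strain (bottom). Filled points passed an adjusted p of 0.05. In the top row the 4 filled points lie in HHT1 and in or beside HHT2, and in the bottom row the 2 filled points lie in HHT1 and in the flank beyond HTA1.

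The question of what happened as H3 was depleted is addressed by 3 h against 0 h within each culture. Over the 8 genes and 4 shared promoters, none was called by edgeR, where genome-wide 0.815% of all 30061 features tested were called lower and 0.605% higher, 1.42% in all. HHT1 and HTB1 had an unadjusted p under 0.05 by edgeR, as did 5629 of the 30061 features genome-wide. DESeq2 called none. The median of the 12 was 0.10 on the log2 scale, beside 0.02 over all features tested. HHT1 is deleted in the shutoff strain, so its values there follow reads whose origin cannot be told. At HHT1 the read centers were 46 and then 27 in replicate 1, 83 and then 34 in replicate 2, and 145 and then 112 in wildtype (fitted log2 in the shutoff strain -1.06, SE 0.41, adjusted p = 0.151). HTB1, one of the H2B genes, had 136 and then 210 in replicate 1 and 139 and then 189 in replicate 2, while wildtype had 132 and then 137 (log2 0.51, SE 0.23, adjusted p = 0.227). Both shutoff cultures had more reads at HTB1 after 3 h, although the change was not called. Without the first culture the log2 change was -1.33 at HHT1 and 0.40 at HTB1, and without the second it was -0.81 and 0.58, with no residual degrees of freedom for a test. With at most 1 read per identical interval the changes were smaller, at -0.55 for HHT1 (adjusted p = 0.538) and 0.27 for HTB1 (adjusted p = 0.516). HTA1, its partner, had 194 and then 247 in replicate 1 but 244 and then 172 in replicate 2, so the cultures differed in direction.

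Of the 59 nucleosomes, 1 was called lower and 1 higher at 3 h, where the background was 2.98% lower and 2.70% higher, 5.68% in all. The lower one was again that centered 290 bp into HHT1, at 31 and then 7 in replicate 1, 41 and then 14 in replicate 2, and 66 and then 41 in wildtype (log2 -1.61, SE 0.50, adjusted p = 0.0311). Because HHT1 is deleted in this strain, the call concerns reads placed there and does not show the loss of a nucleosome. The higher one lay in the flank beyond HTA1, near ADK1 (adenylate kinase), at 11 and then 44 in replicate 1, 21 and then 46 in replicate 2, and 15 and then 12 in wildtype (log2 1.71, SE 0.52, adjusted p = 0.0284). In the shutoff strain the 3 h counts at this second site did not overlap the 0 h counts. The share of all nucleosomes whose times separate in this way was not counted. Both calls were lost with DESeq2 (adjusted p = 1 for both), without the replicate block (0.0685 and 0.0602) and with a window of 73 bp (0.227 and 0.102). With at most 1 read per identical interval they were lost too, at log2 -0.69 (adjusted p = 0.681) and 1.29 (adjusted p = 0.137). The fit with the pair as a block left 1 residual degree of freedom, and leaving out a culture left none.

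The test of whether the change differed between strains rested on a single wildtype culture. It called none of the 8 genes and 4 promoters by edgeR or by DESeq2, and none had an unadjusted p under 0.05. Genome-wide it called 0.00665% of features, and 3893 of 30061 had an unadjusted p under 0.05 by edgeR. Among the 59 nucleosomes edgeR called none (5 at an unadjusted p under 0.05, none by DESeq2), against 0.082% lower and 0.0671% higher genome-wide, 0.149% in all. An unadjusted p under 0.05 was reached by 6805 of the 53684 nucleosomes tested by edgeR genome-wide. For the HHT1 gene the difference between strains in the change was -0.73 on the log2 scale (SE 0.65, adjusted p = 0.658). The fall over time in reads placed at HHT1 was therefore not shown to differ from that in wildtype.

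The H4 genes, whose products pair with H3, were not called between strains. HHF1, divergent from HHT1, had 85 and 84 read centers in the shutoff strain at 0 h and 132 and 81 at 3 h, against 99 and 89 in wildtype (strain difference log2 -0.03, SE 0.26, adjusted p = 0.960). One library, 3 h replicate 1, lay above the rest. HHF2 had 107 and 125 at 0 h and 140 and 122 at 3 h against 134 and 109 (log2 -0.01, SE 0.19, adjusted p = 0.971). Their values overlapped between strains and between times. The promoter shared by HHF1 and HHT1 had 181 and 137 at 0 h and 173 and 131 at 3 h against 131 and 172 (log2 0.01, SE 0.20, adjusted p = 0.984), and its groups overlapped. Its nucleosome nearest to HHT1, 178 bp before the start codon, held 28 and 34 at 0 h and 41 and 20 at 3 h against 43 and 55, and all shutoff libraries lay below both wildtype libraries there, but it was not called (log2 -0.51, SE 0.32, adjusted p = 0.326). Reads over the first base of HHT1 were 7 and 17 at 0 h and 17 and 10 at 3 h, against 31 and 28 in wildtype.

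**Figure D5:**
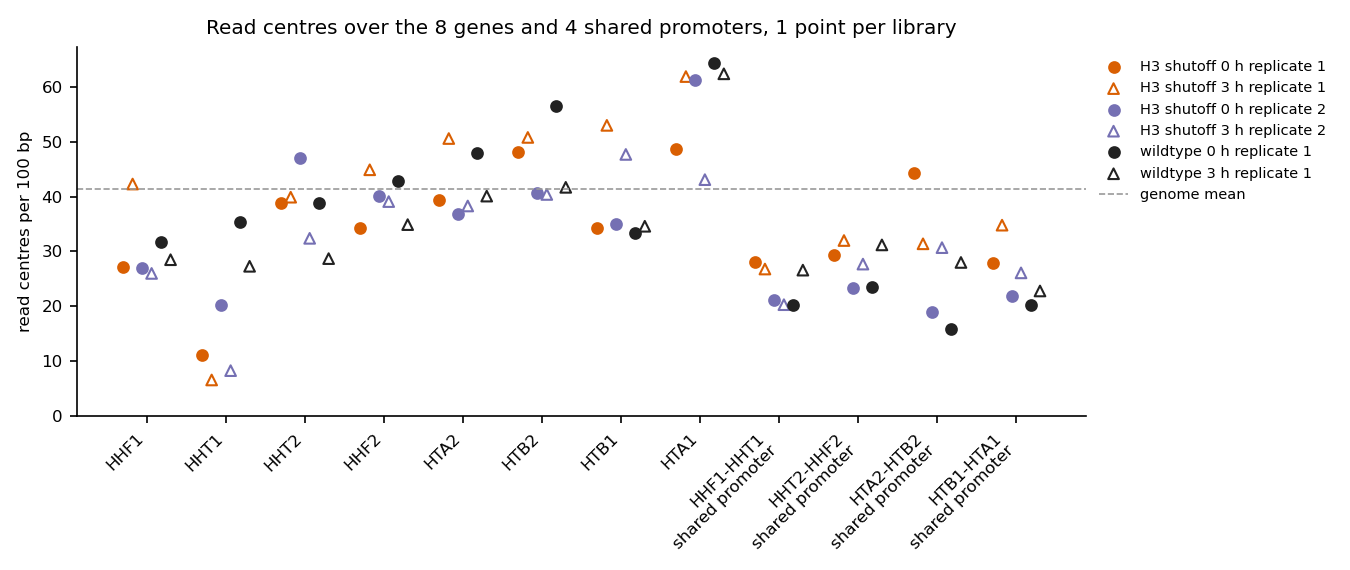
Read centers per 100 bp (vertical axis) over the 8 coding regions and 4 shared promoters, with 1 point per library, filled circles for 0 h and open triangles for 3 h. The dashed line is the genome mean of 41.4. HHT1 in the H3 shutoff strain is the lowest of the coding regions, and the HTA2-HTB2 promoter spreads most at 0 h, from 15.9 to 44.3.

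The genes for H2A and H2B are not altered in the described genotype of either strain, and HTA1, HTB2 and HTA2 were the deepest of the 8 coding regions in wildtype at 0 h. Per 100 bp, HTA1 held 43.1 to 61.9 read centers in the shutoff strain and 64.4 and 62.4 in wildtype, and HTB2 held 40.4 to 50.8 and 56.6 and 41.7. HTA2 held 36.8 to 50.6 and 47.9 and 40.1, and HTB1 held 34.3 to 53.0 and 33.3 and 34.6. Against the genome mean of 41.4, HTA1 was above it in every library and HTB1 was above it only in the shutoff strain at 3 h. In order of the level in wildtype 0 h, HTA1 stood first, then HTB2, HTA2, HHF2, HHT2, HHT1, HTB1 and HHF1, and the last 4 lay between 31.7 and 38.9 per 100 bp. With the wildtype 3 h library included, HTA1 did not overlap HTB2 and HTB1 did not overlap HHF1, while the other neighbors in this order overlapped.

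None of the H2A and H2B coding regions was called between strains. Of the 12 genes and promoters, edgeR called 0, where the genome-wide background was 0.00665%, and HHT1 alone had an unadjusted p under 0.05. Genome-wide 7506 of 30061 features had such a p by the same test. DESeq2 called HHT1. The median of the 12 was -0.0031 on the log2 scale, beside 0.0054 over all features tested. HTA1 differed by -0.28 (SE 0.17, adjusted p = 0.332), HTB1 by 0.26 (SE 0.17, adjusted p = 0.352), HTA2 by -0.13 (SE 0.17, adjusted p = 0.658) and HTB2 by -0.15 (SE 0.17, adjusted p = 0.597).

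None of the first nucleosomes of the H2A and H2B genes was called between strains, and the copies were not tested against each other. In HTA1 the nucleosome centered 81 bp inside the coding region held 173 and 166 read centers in wildtype, 106 and 127 in the shutoff strain at 0 h and 116 and 71 at 3 h. All 4 shutoff libraries lay below both wildtype libraries (log2 -0.55, SE 0.22, adjusted p = 0.141). In HTB2 the nucleosome 46 bp inside held 149 and 97 in wildtype, 85 and 88 in the shutoff strain at 0 h and 74 and 52 at 3 h, again without overlap (log2 -0.55, SE 0.21, adjusted p = 0.123). In HTB1 the nucleosome 52 bp inside held 65 to 83 in the shutoff strain and 72 and 82 in wildtype, and in HTA2 the one 46 bp inside held 33 to 53 and 52 and 51. The first nucleosomes of HTB1 and HTA2 thus overlapped between strains. How many nucleosomes genome-wide separate as those of HTA1 and HTB2 do was not counted. By edgeR, 14288 of the 53684 tested had an unadjusted p under 0.05 between strains.

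Farther into the genes, the nucleosome 345 bp into HTB1 held 35 and then 60 in replicate 1, 29 and then 49 in replicate 2, and 25 and then 32 in wildtype (log2 change in the shutoff strain 0.95, SE 0.39, adjusted p = 0.121). The one 356 bp into HTB2 held 66 and 44 in the shutoff strain at 0 h and 75 and 60 at 3 h against 36 and 41 in wildtype (strain difference log2 0.81, SE 0.28, adjusted p = 0.0928). Neither was called. The nucleosome 380 bp into HTA2 held 70 to 97 in the shutoff strain and 103 and 104 in wildtype, and the one 300 bp into HTA1 held 36 to 60 and 50 and 44.

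The promoter shared by HTA2 and HTB2 varied most. It held 310 read centers in H3 shutoff 0 h replicate 1 and 133 in replicate 2, and 220 and 215 at 3 h, against 111 and 196 in wildtype at 0 h and 3 h. Between the 0 h replicates of the shutoff strain the count thus differed more than between the strains (strain difference log2 0.53, SE 0.28, adjusted p = 0.261). From 0 h to 3 h it went up in replicate 2 and in wildtype, by 0.69 and 0.82 on the log2 scale with 1 read added, and went down by 0.49 in replicate 1. Its nucleosomes showed the same: the one centered 283 bp before HTA2 held 90 and 40 at 0 h, 74 and 82 at 3 h, with 24 and 59 in wildtype, and the one 245 bp before HTB2 held 96 and 33, 49 and 53, and 27 and 57. Without H3 shutoff replicate 1 the strain difference of the promoter was 0.15 on the log2 scale (adjusted p = 0.787). The other promoters were steadier: that of HTB1 and HTA1 held 228 and 178 at 0 h and 284 and 213 at 3 h against 165 and 186 (log2 0.32, SE 0.18, adjusted p = 0.298).

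The emptiest 100 bp of each shared promoter was picked by these same counts, so every promoter has one and its low counts are no test. It lay nearer to one gene of each pair. In the 700 bp between HTA2 and HTB2, the 100 bp with the fewest read centers ended 41 bp before HTB2 and held 1 in H3 shutoff 0 h replicate 1, 1 in wildtype 3 h and 0 in the other 4 libraries, which allows up to 3 per library. It was the emptiest of the 4. In the 646 bp promoter of HHF1 and HHT1 the emptiest 100 bp lay 13 bp from HHF1 and held 3 to 11 in the shutoff strain and 4 and 4 in wildtype. In the 674 bp promoter of HHT2 and HHF2 it lay 4 bp from HHF2 and held 2 to 20 and 5 and 8. The 20 came from H3 shutoff 0 h replicate 1, where the whole promoter held 29.4 per 100 bp. In the 817 bp promoter of HTB1 and HTA1 it lay 125 bp from HTA1 and held 6 to 15 and 6 and 4.

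The nucleosomes that the authors called in each library were compared as well. Within the loci and their flanks there were 59 to 64 called nucleosomes with more than 5 read centers in the shutoff strain and 58 and 60 in wildtype. Between times, 59 nucleosomes of the first shutoff culture could be compared, 53 of the second and 56 of wildtype, with a one-sided binomial test of the deposited counts at a Bonferroni-corrected p under 0.01. This test compares 2 libraries and not conditions. In the shutoff strain none was preferentially reduced or retained, where genome-wide 4.69% and 3.00% were reduced in replicates 1 and 2 and 1.16% and 0.697% were retained. In wildtype 1 was reduced, at HHT2, from 73 to 23 read centers, where the background was 0.364%, and none was retained (background 0.993%). With the looser corrected p under 0.05, the count in the shutoff strain was still 0. An overlap of at least 100 bp is a stricter match, which left 50 and 45 nucleosomes to compare, and its count was 0 too.

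Positions within the loci were compared by fuzziness, the SD of the read centers around a nucleosome as deposited. Its median over the 4 loci was 34.9 and 33.4 bp in the H3 shutoff strain at 0 h and 35.8 and 39.3 bp at 3 h, with wildtype at 31.1 and 33.2 bp. Over the whole genome it was 36.4 and 35.1 bp, 38.1 and 40.0 bp, and 31.0 and 30.5 bp, in the same order. The median over the loci was thus higher at 3 h than at 0 h in both shutoff cultures and also in wildtype, where the rise was larger than in replicate 1. Single loci did not all follow: at HTA2-HTB2 the median went from 37.8 to 36.0 bp in replicate 1 and from 34.5 to 32.4 bp in replicate 2, and at HHT2-HHF2 it was 36.9 and then 36.8 bp in replicate 1. These differences were not tested. The estimated fragment size was shorter at 3 h in both shutoff cultures and not in wildtype, and its part was not tested. The HTB1-HTA1 locus had the lowest median of the 4 in wildtype (24.2 and 23.5 bp) and in H3 shutoff replicate 1 (30.9 bp, then 33.0 bp). In replicate 2 it was at 27.4 bp and then 36.8 bp, and HHF1-HHT1 at 0 h (27.1 bp) and HTA2-HTB2 at 3 h (32.4 bp) were lower.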

How the data were processed

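Reads were aligned by the authors to the sacCer1 build with Bowtie 0.12.6 at default settings, extended to the average fragment size, cleared of ribosomal DNA and drawn at random to an equal number per library. Per the files, the deposited intervals give no strand and no sequence, and the deposited nucleosome lists hold whole-number counts of read centers, not normalized, with positions and SDs in bp that carry no further scaling. A deposited fraction per nucleosome is undefined and was not used.

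Read centers were counted over the coding regions (lengths from the RefSeq gene table, assembly R64, whose coordinates were not used), the shared promoters, 8 flanks of 1 kb and 30169 tiles of 400 bp, and within 50 bp of 54902 consensus nucleosomes (density smoothed with an SD of 10 bp, 169 bp closed around each call). Features with a mean of at least 10 were tested with edgeR 4.0.16 (R 4.3.3; TMM; glmQLFit and glmQLFTest; Benjamini-Hochberg over all features of a table), with DESeq2 1.42.0 as an alternative. Strains were compared without a block over both times, and times with the replicate pair as a block, since both times came from 1 culture. The numbers did not deviate together (r = -0.116 over nucleosomes), so the pairing rests on the design. The wildtype arm has 1 library per time and is assumed to vary like the shutoff strain. The scripts were tested on simulated data.

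All 8 genes, all 4 shared promoters and the nucleosomes with centers inside a pair were named. Flank nucleosomes were given as counts, except those called, which were named after their values were seen. The members and lists were chosen with earlier results of these data known. Alternatives were library totals, DESeq2, no filter, 1 read per identical interval, single times, libraries left out, other windows and moved features. The planned promoter motif search and protein comparison were not run, because the sequences were not among the sources used here.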

Additional observations from a re-analysis of the deposited data

How the results depend on the processing

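Of the 8 genes and 4 promoters, the number called lower between strains (0) rose to 1, HHT1, with library totals (log2 -1.52, adjusted p = 0.0472), DESeq2, the 3 h libraries alone (log2 -1.95, adjusted p = 0.0233) and the replicate block, with pairs summed over both times (log2 -1.46, adjusted p = 0.0136), and it ranged from 0 to 1 with libraries left out: without H3 shutoff replicate 1 (adjusted p = 0.0269) or without H3 shutoff 0 h replicate 1 (0.00228) it was 1. With the 0 h libraries alone the log2 difference was -1.18 (adjusted p = 0.994). No member feature was called for the change or for the difference between strains under any alternative. Of the 59 nucleosomes, the number called lower between strains (2) became 1 with no filter, with the 3 h libraries alone and with the replicate block, and 0 with library totals, DESeq2, 1 read per identical interval, the 0 h libraries alone and the 73 bp window. The number called higher (2) became 0 with DESeq2, 1 read per identical interval, the 0 h libraries alone and the 73 bp window. With libraries left out these counts ranged from 0 to 6 and from 0 to 8. The highest counts were without H3 shutoff 0 h replicate 2, where 22.4% of all nucleosomes were called, and 14 of 59 is near that share. Both counts were 0 without H3 shutoff replicate 1 or 2, or without either of their 3 h libraries alone. For the change with time, the number called lower (1) became 0 with library totals, DESeq2, 1 read per identical interval, no replicate block and the 73 bp window, and the number called higher (1) became 0 with DESeq2, 1 read per identical interval, no replicate block and the 73 bp window. No called value changed sign. The cause was not tested. Genome-wide the strain test of features called 2 of 30061 with TMM, 448 with library totals, 213 with DESeq2, 4158 with the 3 h libraries alone and 2923 with the replicate block. The fits without H3 shutoff 0 h or 3 h replicate 1 or 2 were chosen after seeing the data. Regions read at 0 to 3 read centers, such as the HHT1 3′ end in the H3 shutoff strain, allow no more than a rough limit on the fold.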
